A study of Homo sapiens with 36 samples.

Results

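The effect of a vector labelled for GABPα overexpression was examined in c42b cells, the castration-resistant derivative of the androgen-dependent human prostate cancer line LNCaP. Overexpression-labelled cells (pLVX_GABPa) were set against cells with the empty vector (pLVX_EV), each with R1881, a synthetic androgen, or with its ethanol vehicle. All samples of these groups in the series were taken by their labels, which gave 8 of 32 samples, 4 a side and 2 in each of 4 groups, from 9 of the 36 Illumina HT-12 v4 arrays. The 9th array was a repeat of replicate 2 of the overexpression-labelled cells with R1881 and was averaged with it. The rest of the series held c42b cells with a knockdown hairpin for GABPA or with a non-targeting one, and LNCaP cells with all 4 constructs. Steroids were withdrawn from all groups by charcoal-stripped serum for 48 h, and each received 1 nM R1881 or ethanol. Per the study's text the overexpression construct was doxycycline-inducible, and the labels do not say whether doxycycline was given before RNA extraction. The study's methods speak of biological triplicates, whereas the labels show 2 replicates a group and some repeat arrays. Since the labels do not say whether replicates came from separate cultures, the p-values reflect only how these samples vary, and that variation may be technical.

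GABPα, encoded by GABPA, is the DNA-binding subunit of GABP, an ETS-family transcription factor that works as a complex with a β subunit (GABPB1 or GABPB2) and is best known for driving housekeeping and mitochondrial genes through the core CCGGAA. The androgen receptor, the target of hormone therapy in prostate cancer, is a nuclear receptor that enters the nucleus on binding androgen and activates genes such as those for the kallikreins KLK2 and KLK3 (prostate-specific antigen), often through copies of the half-site AGAACA. The comparison asks which genes differ in cells that keep androgen receptor signalling and carry a vector labelled for GABPα overexpression. The study reported that GABPα interacts with that receptor.

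Expression is given as log2 of the quantile-normalized intensity of the brightest probe of a gene, and differences are overexpression-labelled minus empty-vector values. Array medians ran from 178.3 to 222.1 intensity units, and the difference between the 2 replicates of a group had an SD across genes between 0.18 and 0.22 log2. The repeat array differed from the first array of its sample by an SD of 0.20, which is as large as the difference between replicates. Of 20046 genes, 48.2% had a mean level over all 32 samples above 7.80. That value was the 95th percentile of 457 olfactory receptor probes and served as a background level. In a principal component analysis of the 8 samples the first component (37.5% of the variance) separated the R1881 samples from the vehicle samples. All 7 measured luminal markers (KLK3, KLK2, HOXB13, FOLH1, KRT8, KRT18 and TMPRSS2) were above background and the 3 basal markers were below it. Of the other marker lists, 2 of 5 neuroendocrine, 3 of 6 stromal, 1 of 3 endothelial and 1 of 3 leukocyte genes were above background, and none of these genes was called. The summed luminal marker intensity ran from 11680 to 19050 in overexpression-labelled cells and from 9505 to 16730 in empty-vector cells, both arms pooled. These pooled ranges overlapped, as did those of every other marker list. Of the 7 luminal markers, 3 (KLK2, KLK3 and TMPRSS2) were called higher (42.9%, against 0.11% of all genes). With each array centred on its median in place of quantile normalization, KLK3 and TMPRSS2 were not called. With vehicle the mean luminal marker level was 10.415 and 10.49 in overexpression-labelled cells and 10.169 and 10.155 in empty-vector cells, without overlap. With R1881 the means were 10.81 and 10.65 against 10.68 and 10.50, which overlapped. The same mean was also higher in hairpin than in non-targeting c42b cells. With vehicle it was 10.07 and 10.05 against 9.82 and 9.68, and with R1881 10.51 and 10.37 against 10.22 and 10.15.

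The probes for GABPA itself were not called. It read 8.14 and 8.33 in overexpression-labelled cells with R1881, against 8.34 and 8.09 in empty-vector cells. With vehicle it read 8.05 and 8.20 in overexpression-labelled cells and 8.11 and 8.05 in empty-vector cells. The groups overlapped in both arms, and the averaged difference was 0.03 ± 0.11 (SE; limma, adjusted p = 0.978). The mean level of this probe was 7.95, little above the background of 7.80. A second GABPA probe, below background at 6.565, gave 0.17 ± 0.10 (adjusted p = 0.707). GABPB1, a β subunit, gave 0.14 ± 0.09 (adjusted p = 0.724), and the brighter probe of GABPB2, the other β subunit, gave 0.04 ± 0.13 (adjusted p = 0.978). In c42b cells with the GABPA hairpin the first GABPA probe was lower than in non-targeting cells (-0.46, adjusted p = 0.0215). Where on the transcript the probes lie is not given in the sources used here, and a probe outside the cloned insert would not read it. The study's methods describe a check of the overexpression by western blotting and PCR, which was not part of these data.

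One probe did separate every overexpression-labelled sample from every other sample of the series. It was singled out after its values were seen, and the annotation used gives it no gene (ILMN_1682403). It read 8.57 and 9.07 in overexpression-labelled c42b cells with R1881, against 7.30 and 7.57 in empty-vector cells. With vehicle it read 8.60 and 8.97 in overexpression-labelled cells, against 7.68 and 7.39 in empty-vector cells. The difference of 1.32 ± 0.11 (adjusted p = 2.65e-09) had the smallest p of all 47231 probes. In overexpression-labelled LNCaP cells the same probe read 9.52 to 9.86, 2.04 above empty-vector cells (adjusted p = 1.38e-13), and it was the only probe called in both lines. The 24 samples with an empty vector or a hairpin lay between 7.22 and 7.82, so the probe was at or near background wherever the overexpression label was absent. The difference between the lines was -0.72 (adjusted p = 0.0718).

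**Figure D1:**
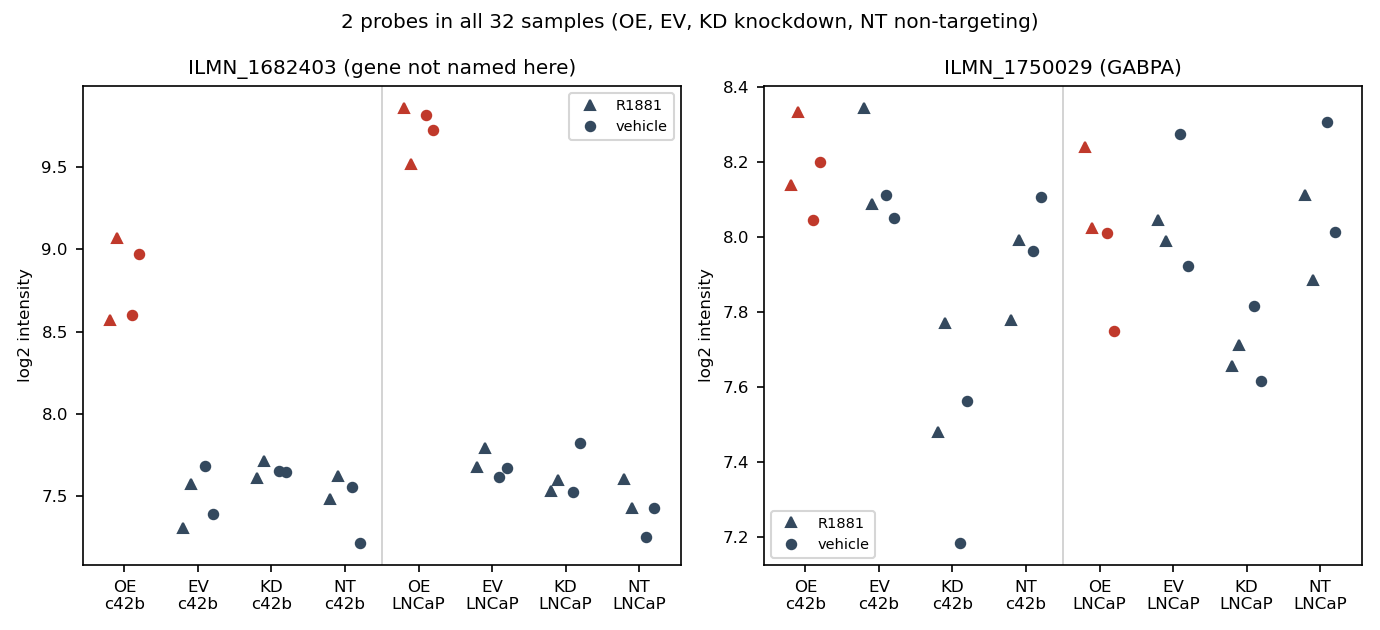
Log2 intensity of the unnamed probe (left) and of the brighter GABPA probe (right) in all 32 samples, by construct and line; triangles are R1881 samples and circles vehicle samples. The unnamed probe was at 8.57 or above in the 8 overexpression-labelled samples and at 7.82 or below in the other 24, whereas the GABPA probe was lower in hairpin cells and overlapped between overexpression-labelled and empty-vector cells.

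Averaged over the 2 arms, 30 of 20046 genes (0.15%) passed an adjusted p of 0.05, 22 higher (0.11% of genes) and 8 lower (0.0399%) in overexpression-labelled cells. The higher genes were led by SLC45A3, PMEPA1, TM4SF1 and KLK2, and 11 of the 22 were genes that R1881 induced in non-targeting c42b cells. The lower genes were led by HMOX1 and ID3 and included the cell division genes CDC20, CCNB2 and CKS2. The differences were small, between 0.31 and 0.66 for the higher genes and between -0.50 and -0.35 for the lower ones. The adjustment ran jointly over 6 comparisons of the series, as the study's methods describe, and comparisons with many changes ease it for the others. Adjusted over this comparison alone, 5 genes passed (0.0249%): SLC45A3, TM4SF1, PMEPA1, HMOX1 and KLK2. Without adjustment 1161 genes had a p under 0.05, and 1002 such genes are expected if nothing changed. When each array was centred on its median in place of quantile normalization, 20 genes passed, 8 higher and 12 lower, so the excess of higher genes depends on the scaling. Of these 20 genes, 15 were among the 30. In bulk samples such as these, fewer cells of a type and less RNA per cell cannot be told apart.

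Each of the 8 samples was left out in turn. The calls of 7 genes (SLC45A3, TM4SF1, PMEPA1, HMOX1, KLK2, GAS7 and RHOU) held every time, and none of the 30 changed direction. Of the 30 genes, 12 were called without replicate 1 of the overexpression-labelled cells with R1881 and 18 without replicate 2. Without replicate 1 or 2 of the overexpression-labelled cells with vehicle, 15 and 16 were called. Without the empty-vector samples the numbers were 15 and 20 for replicates 1 and 2 with R1881, and 20 and 14 for those with vehicle. The other 23 genes lost the call in at least 1 of these fits, with adjusted p up to 0.333, and GCNT1 lost it in all 8. In a fit on the 8 c42b pLVX samples alone no gene passed (997 at an unadjusted p under 0.05; smallest adjusted p = 0.0586).

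SLC45A3 encodes prostein, a membrane protein largely restricted to prostate epithelium. It measured 11.15 and 11.22 in overexpression-labelled cells with R1881, against 11.15 and 10.88 in empty-vector cells. With vehicle it measured 10.03 and 10.14 in overexpression-labelled cells and 8.83 and 9.02 in empty-vector cells. The vehicle samples were thus far apart while the R1881 samples nearly touched, and the averaged difference was 0.66 ± 0.09 (adjusted p = 2.77e-05). PMEPA1 encodes a membrane protein that is induced by androgen and by TGF-β and dampens SMAD signalling. It measured 12.12 and 12.16 in overexpression-labelled cells with R1881, against 11.90 and 12.22 in empty-vector cells. In the vehicle arm it measured 11.33 and 11.26 in overexpression-labelled cells, against 10.14 and 10.24 in empty-vector cells. The groups overlapped with R1881 only. The averaged difference was 0.59 ± 0.10 (adjusted p = 0.000862), and a second probe of the gene was also called, at 0.64 (adjusted p = 4.11e-05), while its 2 dimmest probes were not.

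TM4SF1, a tetraspanin-like surface protein of many carcinomas, was higher by 0.56 ± 0.08 (adjusted p = 9.31e-05). It measured 9.62 and 9.61 in overexpression-labelled cells with R1881, against 9.40 and 9.28 in empty-vector cells. With vehicle it measured 10.11 and 10.23 in overexpression-labelled cells and 9.31 and 9.35 in empty-vector cells. The groups did not overlap in either arm, and unlike the prostate genes around it TM4SF1 did not respond to R1881 in non-targeting cells (difference of 0.01). KLK2 encodes a secreted kallikrein protease that activates prostate-specific antigen. It measured 10.19 and 10.11 in overexpression-labelled cells with R1881, against 9.64 and 9.93 in empty-vector cells. Without androgen it measured 9.36 and 9.37 in overexpression-labelled cells and 8.67 and 8.79 in empty-vector cells, a difference averaged over arms of 0.50 ± 0.09 (adjusted p = 0.00154). KLK3, its neighbour on chromosome 19, was higher by 0.43 ± 0.09 (adjusted p = 0.00843; 0.0505 without replicate 2 of the overexpression-labelled cells with R1881). It measured 10.98 and 11.07 in overexpression-labelled cells with R1881, against 10.75 and 10.79 in empty-vector cells. With vehicle it measured 10.47 and 10.45 in overexpression-labelled cells and 9.82 and 9.88 in empty-vector cells, so both kallikreins were separated in both arms.

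**Figure D2:**
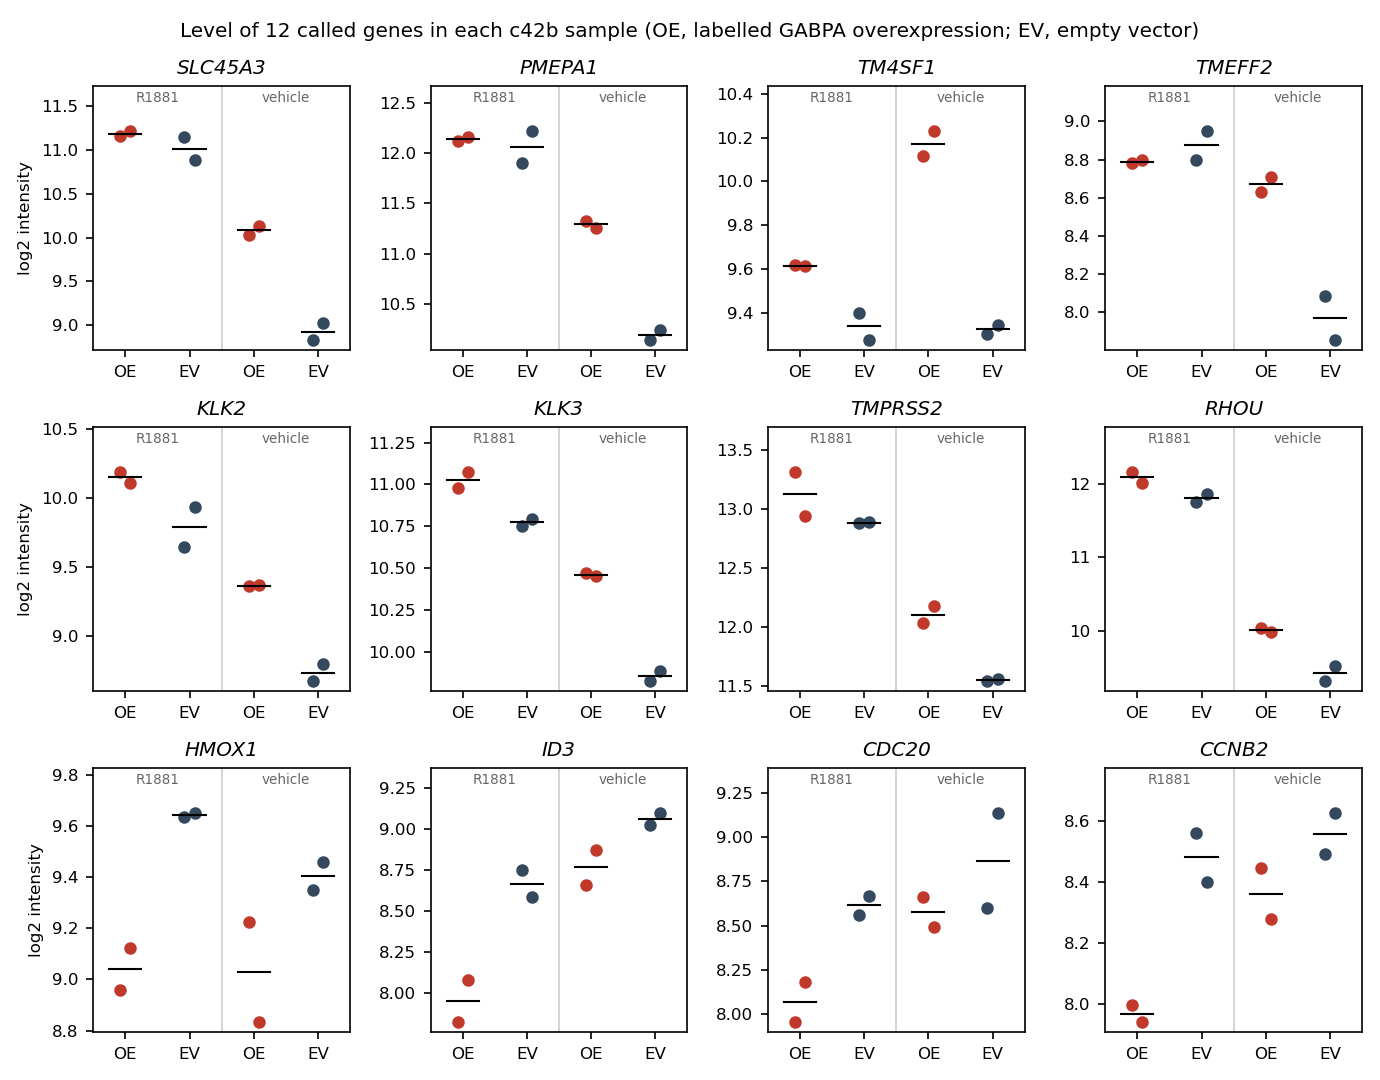
Log2 intensity of 12 called genes in each sample, overexpression-labelled (OE) and empty-vector (EV) cells side by side, R1881 left and vehicle right; dots are samples and bars the means of 2. SLC45A3, PMEPA1 and TMEFF2 were apart with vehicle and close together with R1881, KLK2, KLK3 and RHOU were apart in both, and ID3 and CCNB2 lay further apart with R1881.

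The remaining genes called higher that R1881 also induced in non-targeting cells were TMPRSS2, a membrane serine protease (0.40 ± 0.09), RHOU, an atypical small GTPase (0.43 ± 0.09), C1orf116, known as the specifically androgen-regulated gene (0.40 ± 0.08), ZBTB16, a zinc finger repressor (0.38 ± 0.09), STK39, a kinase that controls ion transporters (0.32 ± 0.07), NPPC, the precursor of C-type natriuretic peptide (0.43 ± 0.10), and TMEFF2, a transmembrane protein with follistatin domains (0.31 ± 0.08). NPPC was at 9.33 and 9.43 in overexpression-labelled cells with R1881, against 8.77 and 8.74 in empty-vector cells. With vehicle it was at 7.60 and 7.34 in overexpression-labelled cells and 7.34 and 7.13 in empty-vector cells. Among these 7 genes NPPC alone was separated with R1881 and overlapping, below background, with vehicle, while TMEFF2 was higher with vehicle only. RHOU was at 12.16 and 12.01 in overexpression-labelled cells with R1881, against 11.75 and 11.86 in empty-vector cells, and with vehicle at 10.03 and 9.98 in overexpression-labelled cells, against 9.32 and 9.53 in empty-vector cells. Of the strongly androgen-induced genes that were not called, a pair was singled out after its values were seen. FKBP5, which encodes a receptor co-chaperone, gave 0.15 (adjusted p = 0.656), and SGK1, a kinase gene with the largest response to R1881 in non-targeting cells of all genes tested (2.40), gave 0.20 (adjusted p = 0.392).

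Of the 11 genes called higher that did not belong to this set, GAS7, a cytoskeletal regulator first found in growth-arrested cells, differed most after TM4SF1 (0.48 ± 0.09, adjusted p = 0.00345). GAS7 was at 7.86 and 7.81 in overexpression-labelled cells with R1881, against 7.29 and 7.04 in empty-vector cells. With vehicle it was at 7.67 and 7.62 in overexpression-labelled cells, against 7.32 and 7.40 in empty-vector cells, so it was separated in both arms but around background, and its 3 other probes were not called. H2BC21, a histone H2B gene, and GCNT1, an enzyme that branches O-glycans, were well above background and gave 0.31 ± 0.08 and 0.36 ± 0.09, though a dimmer second probe of GCNT1 was not called. The zinc finger gene ZNF706 (0.34) and CPNE7, a calcium-dependent membrane-binding protein (0.39), were at or above background, but their other probes were not called. FAM223B, a non-coding transcript, CACNA1G, a T-type calcium channel, SRGAP1, a GTPase-activating protein of Slit-Robo signalling, CALY, a vesicle protein of neurons, and MS4A15, a tetraspan membrane protein, gave 0.39 to 0.41 at levels below background. The second probes of CACNA1G and CALY lay in the other direction (-0.29 and -0.18, adjusted p = 0.291 and 0.782). In all, 15 of the 22 higher genes and 7 of the 8 lower genes had a mean level above background. This mean was taken over all 32 samples, which include the hairpin and non-targeting cells.

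HMOX1, the enzyme that degrades haem, was the lower gene with the smallest p. It measured 8.96 and 9.12 in overexpression-labelled cells with R1881, against 9.63 and 9.65 in empty-vector cells. In the vehicle arm it measured 9.23 and 8.83 in overexpression-labelled cells and 9.35 and 9.46 in empty-vector cells. The groups were separated in both arms, by a difference of -0.49 ± 0.09 (adjusted p = 0.00105). ID3, an inhibitor of basic helix-loop-helix factors and an immediate target of BMP signalling, was lower too (-0.50 ± 0.10, adjusted p = 0.00635). It measured 7.82 and 8.08 in overexpression-labelled cells with R1881, against 8.75 and 8.58 in empty-vector cells. With vehicle it measured 8.66 and 8.87 in overexpression-labelled cells and 9.02 and 9.10 in empty-vector cells. The call was lost, at adjusted p of 0.0638 and 0.0526, without replicate 1 of the overexpression-labelled cells with R1881 or with vehicle. Its relative ID1 was also separated in both arms (-0.38 ± 0.12) but did not pass (adjusted p = 0.172).

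CDC20, which activates the ubiquitin ligase that starts anaphase, measured 7.96 and 8.18 in overexpression-labelled cells with R1881, against 8.56 and 8.67 in empty-vector cells. Without androgen it measured 8.66 and 8.49 in overexpression-labelled cells, against 8.60 and 9.14 in empty-vector cells, where the groups overlapped. The averaged difference was -0.42 ± 0.10 (adjusted p = 0.018; -0.28, adjusted p = 0.21, without replicate 2 of the empty-vector cells with vehicle). CCNB2, a mitotic cyclin, and CKS2, a subunit of cyclin-dependent kinases, were both lower (-0.35 ± 0.09, adjusted p = 0.032 and 0.0344), and a second CKS2 probe was also called at -0.44 (adjusted p = 0.0189). HDGFL2, a chromatin reader (-0.36), RNF144B, a ubiquitin ligase (-0.35), and HOPX, an atypical homeodomain protein (-0.36), were the other 3. The second HDGFL2 probe gave -0.11 (adjusted p = 0.874) and the 2 other HOPX probes -0.01 and 0.02 (0.995 and 0.984). HOPX was the only one of the 8 below background on average. It was at 7.92 and 8.02 in overexpression-labelled cells with R1881, against 8.75 and 8.54 in empty-vector cells, and overlapped with vehicle.

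Both arms were then taken apart. In the R1881 arm no gene passed (0%, with 1076 genes at an unadjusted p under 0.05, and 1 gene, HOPX, at -0.67 with an adjusted p of 0.0797). In the vehicle arm 4 genes passed (0.02%), all higher in overexpression-labelled cells: SLC45A3 (1.16 ± 0.13, adjusted p = 6.5e-05), PMEPA1 (1.11 ± 0.15, 0.000434), TM4SF1 (0.85 ± 0.12, 0.00118) and TMEFF2 (0.70 ± 0.11, 0.00861). The call of TM4SF1 was lost without replicate 1 of the empty-vector cells with vehicle (adjusted p = 0.0516) or replicate 2 of the overexpression-labelled cells with vehicle (0.0936). TMEFF2 was lost without replicate 2 of the empty-vector cells with vehicle (0.292) and without either overexpression-labelled vehicle sample (0.08 and 0.204). The test of the difference between the arms passed for 3 genes (0.015%), and for all 3 the difference was smaller with R1881. SLC45A3 gave 0.17 with R1881 and 1.16 with vehicle, a change of -0.99 ± 0.18 (adjusted p = 0.0134). PMEPA1 gave 0.08 with R1881 and 1.11 with vehicle (-1.03 ± 0.21, adjusted p = 0.03). TMEFF2 gave -0.09 with R1881 and 0.70 with vehicle (-0.78 ± 0.16, adjusted p = 0.03), its level being 8.78 and 8.80 in overexpression-labelled cells with R1881 and 8.80 and 8.95 in empty-vector cells.

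Expressed as a response to androgen (R1881 minus vehicle), SLC45A3 gave 1.10 in overexpression-labelled cells and 2.09 in empty-vector cells. The response of PMEPA1 was 0.84 in overexpression-labelled cells and 1.88 in empty-vector cells, and that of TMEFF2 was 0.12 in overexpression-labelled cells and 0.90 in empty-vector cells. These interaction calls rested on few samples. SLC45A3 kept its call in 4 of the 8 fits that left out a sample (adjusted p up to 0.119), PMEPA1 in 1 (up to 0.219) and TMEFF2 in 2 (up to 0.216), and none passed when this comparison was adjusted alone. The next genes by p were SYT4, a synaptotagmin of secretory vesicles (0.41 with R1881 and -0.49 with vehicle, adjusted p = 0.0708), and COQ4, a factor for coenzyme Q synthesis whose probe was below background (-0.41 with R1881 and 0.62 with vehicle, 0.0859). Of the 22 higher genes 17 differed more with vehicle than with R1881, and of the 8 lower genes 2 did. Across the 9668 genes above background the 2 arms' differences correlated at r = 0.03 (Spearman's rho of 0.02); the arms share no sample, and this describes genes, which are not replicates.

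**Figure D3:**
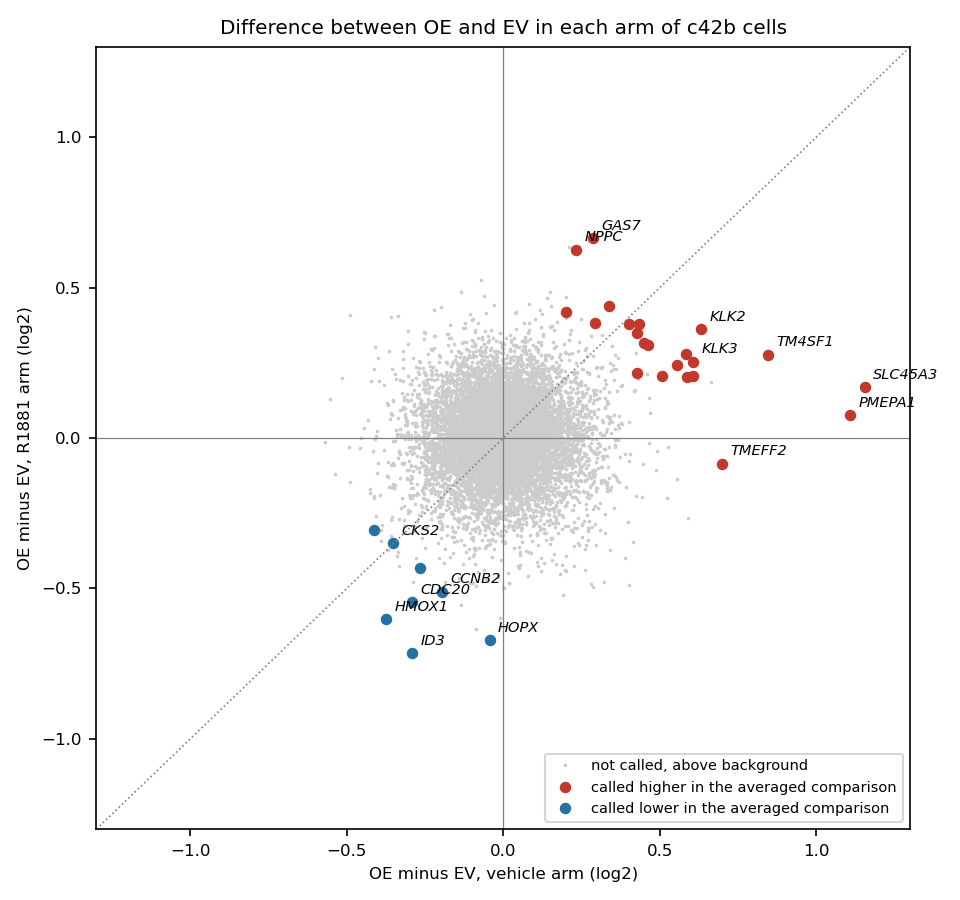
Difference between overexpression-labelled and empty-vector cells (log2) in the vehicle arm (x axis) and the R1881 arm (y axis) for genes above background (grey) and for the genes called higher (red) or lower (blue) in the averaged comparison; the dotted line marks equal differences. SLC45A3, PMEPA1 and TMEFF2 lie far to the right and near 0 on the y axis, while ID3, HMOX1, CDC20 and HOPX lie lowest on the y axis.

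Non-targeting c42b cells share no sample with this comparison and give a measure of which genes respond to androgen in the line. The spread of each probe was estimated over all 32 samples, so calls in the 2 comparisons are not independent. In non-targeting cells R1881 induced 89 genes by at least 0.5 log2 (0.444% of genes at an adjusted p of 0.05) and repressed 33 (0.165%). Of the 89 induced genes, 11 were called higher in overexpression-labelled cells (12.4%, against 0.11% of all genes) and none lower; of the 33 repressed genes none was called. The difference was positive for 70 of the 89 induced genes, with a median of 0.12, and negative for 26 of the 33 repressed genes, with a median of -0.09, where the median of all genes was 0.00. With each sample left out in turn the medians stayed between 0.11 and 0.12 and between -0.10 and -0.05, -0.05 being the value without replicate 1 of the empty-vector cells with R1881. Under median centring they were 0.05 and -0.13, against -0.03 for all genes. Of the 11 called genes, SLC45A3, PMEPA1 and KLK2 kept the call under median centring. KLK3, TMPRSS2, RHOU, C1orf116, ZBTB16, STK39, NPPC and TMEFF2 lost it, so most of this count depends on the scaling. Members of these sets are not independent replicates, and no test was made over them.

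The shift of the induced genes was seen in both arms. In the R1881 arm overexpression-labelled and empty-vector samples did not overlap for 38 of the 89 in the higher direction and 10 in the lower, where 17.7% and 18.1% of all genes did so. In the vehicle arm the numbers were 46 and 6, against 16.1% and 17.4% of all genes. In both arms at once 25 of the 89 were higher without overlap and 1 lower, against 3.1% and 3.29% of all genes, and 18 of the 22 called higher and 6 of the 8 called lower were among those separated in both. The mean level of the 89 genes was 10.12 and 10.06 in overexpression-labelled cells with R1881, against 9.99 and 9.99 in empty-vector cells. With vehicle it was 9.23 and 9.23 in overexpression-labelled cells, against 9.06 and 9.08 in empty-vector cells. Hairpin cells with vehicle were at 9.13 and 9.12, also above non-targeting cells at 9.05 and 9.03. The shift with vehicle was small beside the androgen response itself. For this mean the response was 0.86 in overexpression-labelled, 0.92 in empty-vector, 0.82 in hairpin and 0.95 in non-targeting cells. A response below that of the control was thus not particular to the overexpression label. For the 33 repressed genes, the mean with vehicle was 9.97 and 9.98 in overexpression-labelled cells and 10.15 and 10.07 in empty-vector cells. In non-targeting cells with vehicle it was 9.96 and 9.84, so the empty-vector cells were the highest and the overexpression-labelled cells were not below non-targeting cells. With R1881 the mean was 9.44 and 9.47 in overexpression-labelled cells and 9.53 and 9.43 in empty-vector cells, with non-targeting cells below both. Overexpression-labelled and empty-vector cells were thus apart for the repressed genes with vehicle alone. Across genes, which are not replicates, a larger androgen response went with a larger difference, at r = 0.42 in the R1881 arm and 0.38 in the vehicle arm over the 89 induced genes (rho of 0.39 and 0.28).

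**Figure D4:**
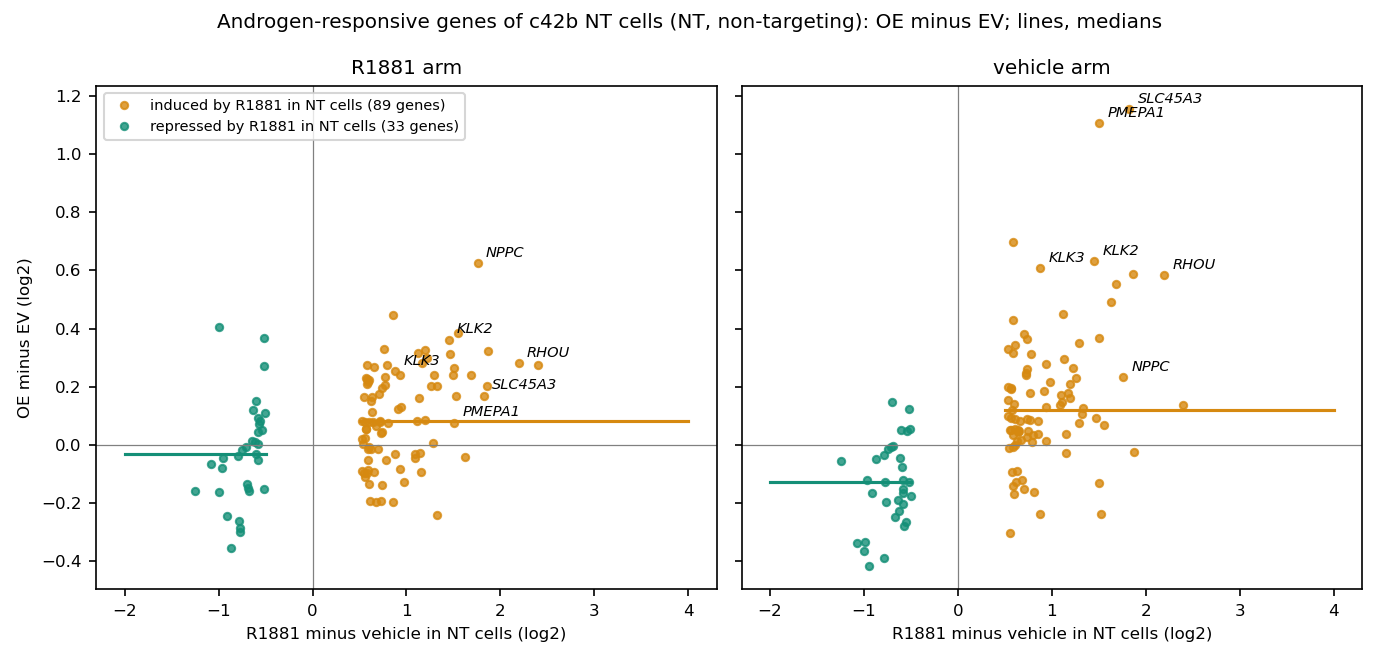
Difference between overexpression-labelled and empty-vector cells (y axis, log2) against the R1881 response in non-targeting c42b cells (x axis, log2), R1881 arm left and vehicle arm right, for 89 induced (orange) and 33 repressed (green) genes; horizontal lines are medians. The induced genes centre above 0 in both arms, the repressed genes centre further below 0 with vehicle, and SLC45A3 and PMEPA1 stand apart with vehicle only.

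To show where the letters of an androgen receptor half-site or an ETS core occur in called genes, the 250 bases before the annotated start are given for 3 genes called higher, from RefSeq (GRCh38.p14). Both kallikreins are shown because both were called higher and their upstream sequences line up, and GCNT1 because it is the only higher gene whose window held CCGGAA. Capitals mark AGAACA in KLK3, the bases lined up with it in KLK2, and the reverse complement of CCGGAA in GCNT1.
KLK3 (chr19:50854665-50854914, plus strand): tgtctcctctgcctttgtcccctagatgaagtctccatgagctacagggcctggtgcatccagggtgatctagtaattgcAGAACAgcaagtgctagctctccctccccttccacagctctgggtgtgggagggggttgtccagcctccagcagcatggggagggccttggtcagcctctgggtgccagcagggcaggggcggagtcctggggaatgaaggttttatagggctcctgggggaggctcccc
KLK2 (chr19:50873189-50873438, plus strand): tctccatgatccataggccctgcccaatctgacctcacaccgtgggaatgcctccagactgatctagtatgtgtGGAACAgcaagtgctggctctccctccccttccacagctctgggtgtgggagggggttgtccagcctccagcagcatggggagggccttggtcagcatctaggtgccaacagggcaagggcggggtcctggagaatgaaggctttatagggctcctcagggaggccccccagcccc
GCNT1 (chr9:76393619-76393868, plus strand): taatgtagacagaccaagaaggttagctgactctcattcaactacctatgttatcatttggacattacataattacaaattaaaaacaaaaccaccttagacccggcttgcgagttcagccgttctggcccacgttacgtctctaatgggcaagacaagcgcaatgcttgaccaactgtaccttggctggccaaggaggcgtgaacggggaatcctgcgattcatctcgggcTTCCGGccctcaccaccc
In KLK3 the half-site began 170 bases before the start. Lined up without gaps, the 2 kallikrein sequences were identical at 185 of 244 bases (75.8%), and at 14 of the 15 bases that begin with the half-site, but KLK2 differed within it. Of the 30 called genes 22 had a promoter window of 300 bases (250 before and 50 after the start). CCGGAA occurred on either strand in 1 of 15 windows of higher genes and 1 of 7 of lower genes, against 17.2% of all 35116 promoters. AGAACA occurred in 3 of the 15 (KLK3, PMEPA1 and STK39) and in 3 of the 7 (CCNB2, HDGFL2 and RNF144B), against 14.8% of all promoters. The full palindromic androgen response element, in which 3 free bases part the half-site from its reverse complement, occurred in none of them and in 0.00285% of all promoters.

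Gene lists described by function gave few further calls. Of 51 measured genes of an androgen-induced list 9 were called higher (17.6%, against 0.11% of all genes) and none lower, with a median of 0.15 (0.09 under median centring). In both arms 18 of the 51 were higher without overlap, against 3.1% of all genes. All 9 were among the called genes that R1881 induced in non-targeting cells, so this list added no further call. Only SLC45A3, PMEPA1 and KLK2 of the 9 kept the call under median centring. Of the 65 genes induced in non-targeting cells but outside this list, 2 were called higher (3.08%). The median of these 65 genes was 0.07. Of 21 prostate secretory and membrane proteins 5 were called higher (23.8%, against 0.11% of all genes), with a median of 0.08 that was 0.02 under median centring. Of the 5, SLC45A3 and KLK2 kept the call under median centring, while KLK3, TMPRSS2 and TMEFF2 lost it. Of 20 genes of an androgen-repressed list only TMEFF2 was called, and it was higher; in non-targeting cells R1881 induced it by 0.59. None of 13 androgen receptor cofactors and prostate lineage factors passed. GRHL2, an epithelial factor that is itself androgen-induced here, came closest with 0.28 ± 0.09 (adjusted p = 0.213), and SOX9, a progenitor factor, and EHF, an epithelial ETS factor, gave -0.21 and 0.17.

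None of 25 GABP subunits and reported targets and none of 72 subunits of the respiratory chain and ATP synthase was called, with medians of 0.00 and -0.02 against 0.00 for all genes. TFB1M, a mitochondrial rRNA methyltransferase (-0.06), TYMS, thymidylate synthase (-0.08), and SKP2, a ubiquitin ligase subunit (-0.05), differed by less than 1 SE. NDUFB9, an accessory subunit of complex I, was separated in both arms (-0.38 ± 0.11, adjusted p = 0.106) while 3 other complex I subunits separated in both, NDUFC2, NDUFB4 and NDUFV3, lay in the other direction (0.21, 0.18 and 0.18). Mitosis genes had a median of -0.10 (quartiles -0.16 and 0.04), the lowest of the 21 functional lists with quantile normalization, with 2 of 56 called lower (3.57%, against 0.0399% of all genes) and 37 of 56 negative. Under median centring the NRF2 and haem genes (-0.13) and the integrated stress response (-0.10) lay below them. The median was -0.06 without replicate 2 of the empty-vector cells with vehicle. Their mean level was 7.80 and 7.83 in overexpression-labelled cells with R1881, against 7.93 and 7.89 in empty-vector cells, and with vehicle 7.90 and 7.91 in overexpression-labelled cells against 7.91 and 8.02 in empty-vector cells. The samples were apart in both arms, by little with vehicle, and 8 of the 56 genes were lower without overlap in both, against 3.29% of all genes. These list means lay close to the background level of 7.80, against 9.72 to 9.81 in non-targeting cells. ASPM, a spindle pole protein (-0.34, adjusted p = 0.0957), and NEK2, a centrosome kinase (-0.34, 0.258), followed the called CDC20 and CCNB2. Of 22 NRF2 and haem genes only HMOX1 was called, while the NRF2 targets SRXN1 (-0.19) and GCLM (-0.19) were separated in both arms without passing. Of 24 BMP and TGF-β feedback genes PMEPA1 was called higher and ID3 lower. TM4SF1 and RHOU were the 2 of 36 adhesion, mesenchymal and invasion genes called. No gene passed in the lists of ETS factors, DNA replication, MYC targets, the integrated stress response, immediate early genes, lipid synthesis, Wnt targets, interferon-stimulated genes, p53 targets, glycolysis or neuroendocrine markers. Members of these lists that were separated in both arms included MYC, a growth regulator that R1881 repressed in non-targeting cells (0.24, adjusted p = 0.194), ACACA, the first enzyme of fatty acid synthesis (0.25, 0.227), and NTS, the precursor of the peptide neurotensin (-0.24, 0.363). Of these 3 genes MYC differed more with R1881 (0.37) than with vehicle (0.12).

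**Figure D5:**
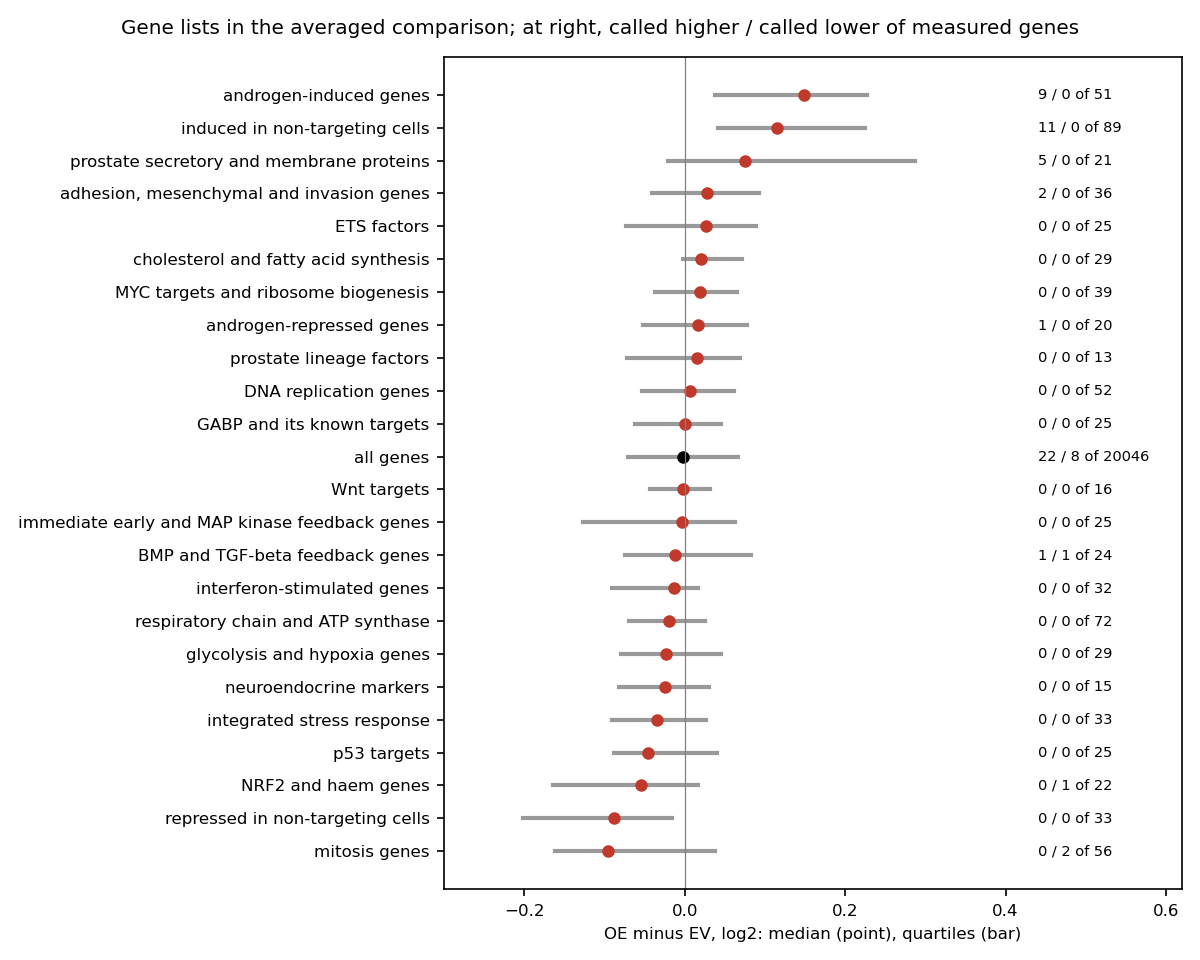
Median difference (point) and quartiles (bar) between overexpression-labelled and empty-vector c42b cells, averaged over arms (log2), for each gene list and for all genes (black), with the numbers called higher and lower of those measured at the right. With the quantile normalization plotted, androgen-induced genes have the highest medians (0.15 and 0.12) and mitosis genes the lowest (-0.10); under median centring 2 other lists lie below mitosis genes.

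The empty-vector cells themselves were far from the non-targeting cells, which bears on how the called genes are read. Between them 3778 genes (18.8%) passed, 21 of the 30 called genes among them. Mitosis genes had a median of -1.95 in empty-vector cells against non-targeting cells, and CDC20 gave -3.93. CDC20 was at 12.64 and 12.68 in non-targeting cells with R1881, far above all 8 pLVX samples (7.96 to 9.14), so its difference of -0.42 was measured in cells that all had little of it. The 2 control vectors come from different backbones, and vector, culture and array processing cannot be told apart between them. Set against non-targeting cells in place of empty-vector cells, 4 of the 30 genes turned direction: HMOX1 (0.11, not called), HOPX (1.07), RNF144B (0.60) and TMEFF2 (-1.03). Of the leading higher genes, SLC45A3 gave 0.09 (adjusted p = 0.716), TM4SF1 gave 0.19 (0.185) and RHOU gave 0.02 (0.944) against non-targeting cells and were not called, the empty-vector cells being themselves lower than non-targeting cells (-0.57, -0.37 and -0.41). PMEPA1 (1.34), KLK2 (0.45) and KLK3 (0.98) were also called against non-targeting cells. For 14 of the 22 higher genes the non-targeting mean lay between the overexpression-labelled and the empty-vector mean, for 7 below the empty-vector mean and for 1 (TMEFF2) above the overexpression-labelled mean.

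In c42b cells with the GABPA hairpin, which share no sample with this comparison, 344 genes were higher (1.72%) and 307 lower (1.53%) than in non-targeting cells. The estimate of spread was shared here too. Of the 22 genes called higher in overexpression-labelled cells, 5 were also called higher with the hairpin (TM4SF1 at 0.46, KLK2 at 0.87, C1orf116 at 0.37, TMPRSS2 at 0.58 and H2BC21 at 0.61) and none was called lower. None of the 8 lower genes was called with the hairpin. No called gene was thus also called in the opposite direction with the hairpin. SLC45A3 gave -0.24 with the hairpin (adjusted p = 0.367) and AGR2, a secreted disulphide isomerase, gave 0.31 in overexpression-labelled cells (adjusted p = 0.131) and -0.68 with the hairpin (adjusted p = 1.8e-05).

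The same comparison in LNCaP cells served to test whether these differences were particular to c42b. The test of the difference between the lines passed for 3 genes (0.015%). SLC45A3 differed by 0.66 in c42b and -0.07 in LNCaP cells (0.73 ± 0.13, adjusted p = 0.00821), and the call held in all 8 fits that left out a c42b sample. HMOX1 differed by -0.49 in c42b and 0.12 in LNCaP cells (-0.61 ± 0.12, adjusted p = 0.0334; up to 0.135 with a sample left out, the call being kept in 3 of 8 fits). FAM223B differed by 0.41 in c42b and -0.19 in LNCaP cells (0.60 ± 0.13, adjusted p = 0.0499; kept in 1 of 8 fits, up to 0.155). None of the 3 passed when adjusted alone (adjusted p = 0.104, 0.305 and 0.305). KLK2 followed (0.50 in c42b and -0.10 in LNCaP cells, adjusted p = 0.0585), with SNORA11D, a small nucleolar RNA (-0.19 in c42b and 0.45 in LNCaP cells, 0.0585). The 89 androgen-induced genes had a median of 0.12 in c42b and -0.02 in LNCaP cells. Across the genes above background the differences in the lines correlated at r = -0.03 (rho of -0.03).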

How the data were processed

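RNA was hybridised to Illumina HumanHT-12 v4 arrays, 2 samples in each of 16 groups. The deposited intensity table holds bead-summarised intensities that the authors made with BASH and HULK of the beadarray package (versions and build not given in the sources used here), which correct spatial artefacts; it is on a linear scale, not normalized between arrays and without detection values. The deposited log2 table holds the same arrays after the authors' quantile normalization and was used as an alternative. Intensities were log2-transformed and quantile-normalized over 36 arrays, repeat arrays were averaged with their sample, and group means over all 32 samples were fitted per probe with limma 3.58.1 in R 4.3.3 (lmFit, eBayes), so that all groups share the estimate of spread. Adjusted p-values (Benjamini-Hochberg, threshold 0.05) were taken over all 47231 probes, jointly over 6 averaged comparisons, over both arms, or over 6 interactions. Of the probes, 30113 had 1 gene (30074 matched in RefSeq), 8 had several and 17110 none; each gene was read from its brightest probe. Genes named were all those called, the leading genes of each arm and interaction test, up to 4 members of each gene list, and a set fixed by name. The number of arrays limits the precision. The comparison, gene lists and promoter motifs were chosen with earlier results of these data known. Promoter sequences came from RefSeq (GRCh38.p14). The fit was tested on simulated data. Alternatives covered background correction, normalization, dim probes, adjustment, threshold, probe choice, repeat arrays, samples in the fit, reference, sample weights, a replicate block and each sample left out.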

Additional observations from a re-analysis of the deposited data

Results flagged for a closer look

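In 3 genes the difference between overexpression-labelled and empty-vector c42b cells was itself different between the arms by the test of the interaction. The R1881 arm minus the vehicle arm was -0.99 for SLC45A3, -1.03 for PMEPA1 and -0.78 for TMEFF2 (log2), each gene being higher in overexpression-labelled cells with vehicle and close to empty-vector cells with R1881. In 3 genes the difference was larger or of another sign in c42b than in LNCaP cells by the same kind of test. The c42b minus LNCaP difference was 0.73 for SLC45A3, -0.61 for HMOX1 and 0.60 for FAM223B. SLC45A3 was the only gene called both between arms and between lines, and its difference between the lines ran from 0.665 to 0.80 with each c42b sample left out. None of these results passed when its comparison was adjusted alone. No arm interaction passed in the fit on c42b samples only.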

How the results depend on the processing

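Of 30 genes called in the averaged comparison, the count stayed within 1.5 times under normexp correction (23), the authors' log2 table (29), median centring (20), sample weights (28) and the replicate block (27). Median centring nonetheless kept only 15 of the 30 calls. Its 20 genes were 8 higher and 12 lower, against 22 and 8 in the main fit. The count was 80 with brighter probes only (42 higher and 38 lower, 22 of them shared), where fewer genes were tested. At an adjusted p of 0.1 it was 55, in the fit on c42b samples only 15, and when adjusted alone 5. It was 0 in the fit on c42b pLVX samples only, and 3783 with non-targeting cells as reference (18 shared). The vehicle arm gave 7 genes with brighter probes only and 2 in the c42b pLVX samples only. The R1881 arm gave 2 with brighter probes only, and 1 at an adjusted p of 0.1 or with repeat arrays left out. The arm interaction gave 13 with brighter probes only, 5 at an adjusted p of 0.1, and 0 when adjusted alone or in the fits on c42b or c42b pLVX samples only (1048 and 892 genes at an unadjusted p under 0.05). The line difference gave 11 with brighter probes only, 9 at an adjusted p of 0.1, 5 with repeat arrays left out, 1 under median centring or with the replicate block, and 0 when adjusted alone. The hairpin comparison gave 1161 with brighter probes only. With 1 sample left out, a lone sample being assumed to vary like the other groups, the averaged count ran from 12 to 33, the vehicle arm from 2 to 4, the R1881 arm from 0 to 1, the arm interaction from 0 to 3 and the line difference from 1 to 3. Replicate numbers did not pair the samples (correlation of deviations between -0.14 and 0.20), and the block changed no other count by over 1.5 times. A reversal of direction was counted only for named genes called in the main or the alternative fit. Such reversals occurred only with non-targeting cells as reference, in 11 genes: HMOX1 (0.11), HOPX (1.07), RNF144B (0.60), PSPH (0.66), ASCL2 (0.40), TMEFF2 (-1.03), AGR2 (-0.84), INSIG1 (-0.26), NDUFB4 (-0.64), GABPB1 (-0.42) and STIL (-1.40). Sign changes of genes called in neither fit were not counted. The causes were not tested. Only 48.2% of genes were above background, which limits what the arrays can show for the rest.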

Other observations

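Among the 17110 probes with no gene in the annotation and the 8 with several, 25 were called in the averaged comparison of c42b cells. Of all genes, 30 of 20046 (0.15%) were called. ILMN_1682403 had the smallest p of the 25. The gene set mean of the 51 measured genes of the androgen-induced list was 10.14 and 10.12 in overexpression-labelled cells with R1881, against 10.02 and 9.99 in empty-vector cells. With vehicle it was 9.40 and 9.40 in overexpression-labelled cells and 9.21 and 9.22 in empty-vector cells. FKBP5 was singled out after its values were seen. It had a response to R1881 of 2.64 in overexpression-labelled cells, 2.30 in empty-vector cells, 2.10 in hairpin cells and 1.87 in non-targeting cells. The difference between the arms was not called for FKBP5. SLC45A3, by contrast, responded least in overexpression-labelled cells (1.10). The mean response of the 89 androgen-induced genes was 0.86 in overexpression-labelled cells and 0.92 in empty-vector cells. It was 0.82 in hairpin cells and 0.95 in non-targeting cells.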
